A study of Homo sapiens with 6 samples.

Results

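The APOBEC3 and Schlafen genes were followed in M14 cells, a human melanoma line, upon knockdown of the cohesin subunit STAG2. The rule took the rows of the deposited gene table whose symbol was 1 of 9 named genes. These were APOBEC3B, APOBEC3C, APOBEC3D, APOBEC3F, APOBEC3G, SLFN5, SLFN11, SLFN12 and SLFN13, and each matched 1 of the 57820 rows. All cells, controls included, carried a doxycycline-inducible STAG2 shRNA and were kept in puromycin. KD cells received doxycycline for 5 days before RNA was taken, and WT cells did not, with 3 libraries in each condition. Both conditions came from 1 cell line with 1 hairpin, and no group received doxycycline without the hairpin, so the drug and the loss of STAG2 cannot be told apart.

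APOBEC3 proteins are cytidine deaminases that turn cytosine into uracil in single-stranded DNA. They damage the genomes of retroviruses and retrotransposons, and APOBEC3B can also mutate the DNA of the tumor cell itself. Schlafen proteins bind nucleic acids, and several of them cleave transfer RNA, which limits the making of viral proteins. SLFN11 in addition blocks stalled replication forks, and its level is known to go with the killing of tumor cells by drugs that damage DNA. Members of both families are known as interferon-stimulated genes in many cell types.

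The libraries held from 24895998 to 35181733 expected counts. Levels are in CPM, an expected count scaled to the library total, after TMM scaling for genes. A floor of 3 counts lay between 0.0853 and 0.121 CPM before TMM scaling and covers counting error only. STAG2 was lower in every KD library than in every WT library, and the fitted difference was −2.12 on the log2 scale (edgeR quasi-likelihood test, adjusted p of 0.0342). Both replicate 1 libraries stood apart from the others in their condition, and 5.07% of the counts of WT replicate 1 were mitochondrial against 2.12% to 2.94% elsewhere. PMEL, a melanosome protein, was at 3370 CPM in WT replicate 1 and 1254 CPM in KD replicate 1, and between 358 and 684 CPM in the other libraries. Same-numbered libraries deviated together from their condition's mean, so a fit with the replicate number as a block was also made, and it is mentioned where it changes a call. Replicates 2 and 3 also deviated together across unlike numbers (r of 0.235 and 0.173), so pairing by number was not established. All 8 melanocyte markers examined were detected and summed to 1861 to 6311 CPM in WT and 1195 to 2606 CPM in KD. Of them S100B fell without the block and 6 fell with it, and the part of this shift in the results on the restriction genes was not tested. Of 6 markers of T and NK cells, in which APOBEC3G is known to be abundant, 5 were at 0 in all libraries and NKG7 reached 0.887 CPM, and the pan-leukocyte gene PTPRC was at 0 in all libraries but WT replicate 3.

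Both families lie in tandem clusters. On GRCh37 the 7 APOBEC3 genes span 151 kb of chromosome 22, from 39348746 to 39500072, all on the plus strand. The 6 Schlafen genes of the chromosome 17 cluster span 318 kb, from 33570090 to 33887838, with SLFN5 on the plus strand and the others on the minus strand. Paralogs in a cluster resemble each other, and 50-base reads from the shared stretches had to be divided between genes by the authors' counting. Of the distinct 50-base words in the annotated transcripts of APOBEC3B, 26.9% also occurred in another gene of the deposited table, with 14.1% shared with APOBEC3A. The share was 18.7% for APOBEC3D, 11.9% for APOBEC3F, 9.69% for SLFN11, 7.0% for SLFN13 and 5.76% for APOBEC3G. It was lowest for the other members, at 1.29% for SLFN12, 1.21% for APOBEC3C and 0.197% for SLFN5. By this measure the counts of APOBEC3B and APOBEC3D were the least certain. In the newer annotation used for positions, a gene model absent from the deposited table overlaps APOBEC3C and APOBEC3D on the same strand.

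RefSeq promoter sequences were given for 2 of the 9 members, SLFN11 and SLFN12, which lie on the minus strand and had fold changes of opposite sign. The 250 bases before each start site are printed 5′ to 3′ from GRCh38.p14, with the match to the GAS motif, the gamma interferon activation site (TTCNNNGAA), in capitals. The SLFN11 stretch is the minus strand of chr17:35373622-35373871 and the SLFN12 stretch the minus strand of chr17:35433175-35433424.
SLFN11: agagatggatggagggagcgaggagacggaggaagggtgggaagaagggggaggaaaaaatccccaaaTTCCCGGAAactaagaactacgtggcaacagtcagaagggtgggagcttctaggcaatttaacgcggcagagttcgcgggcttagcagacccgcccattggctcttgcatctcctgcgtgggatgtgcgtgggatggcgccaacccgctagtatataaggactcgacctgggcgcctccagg
SLFN12: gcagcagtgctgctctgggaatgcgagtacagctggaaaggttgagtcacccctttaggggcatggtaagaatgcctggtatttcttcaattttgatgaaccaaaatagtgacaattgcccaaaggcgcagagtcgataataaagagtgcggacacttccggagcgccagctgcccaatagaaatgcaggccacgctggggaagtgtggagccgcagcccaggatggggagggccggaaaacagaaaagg
Both strands of the 300 bases from 250 before to 50 after each start were searched. The SLFN11 window held 1 GAS match, which begins 182 bases before the start, and the SLFN12 window held 0. Neither window held the interferon-stimulated response element core (ISRE, the letters GAAA, any 2 bases and GAAA) or the E2F motif (TTCCCGC). Among 35116 RefSeq promoters of the same length, 7.66% held the GAS letters, 3.57% the ISRE core and 6.55% the E2F letters. A match is a description of the letters, and its use in these cells was not tested.

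The question of the comparison was which antiviral restriction genes of these families change when STAG2 is depleted. In the test without a replicate block, 0 of the 9 members passed an adjusted p of 0.05, where 2.59% of the 15605 tested genes did (1.75% higher and 0.839% lower in KD, edgeR). At an unadjusted p under 0.05 there were 4 members, APOBEC3D, APOBEC3G, SLFN5 and SLFN11, where 14.8% of all tested genes met this. DESeq2 and limma-voom each called 1 member, SLFN5, as higher in KD and 0 as lower. DESeq2 called 6.29% of all tested genes (3.49% higher and 2.81% lower) and limma-voom 2.64% (1.76% higher and 0.878% lower). With the replicate block, SLFN5 rose and APOBEC3G fell, where 9.52% of all tested genes passed (5.1% higher and 4.42% lower). In 3 members the ranges of KD and WT were separate, SLFN5 and SLFN12 above and APOBEC3D below, where 22.3% of tested genes did not overlap (11.8% above and 10.5% below). As RNA came from bulk culture, fewer cells with a transcript and less of it per cell cannot be told apart. The median log2 fold change was −0.97 over the 5 APOBEC3 members, 0.40 over the 4 Schlafen members and −0.03 over all tested genes.

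**Figure D1:**
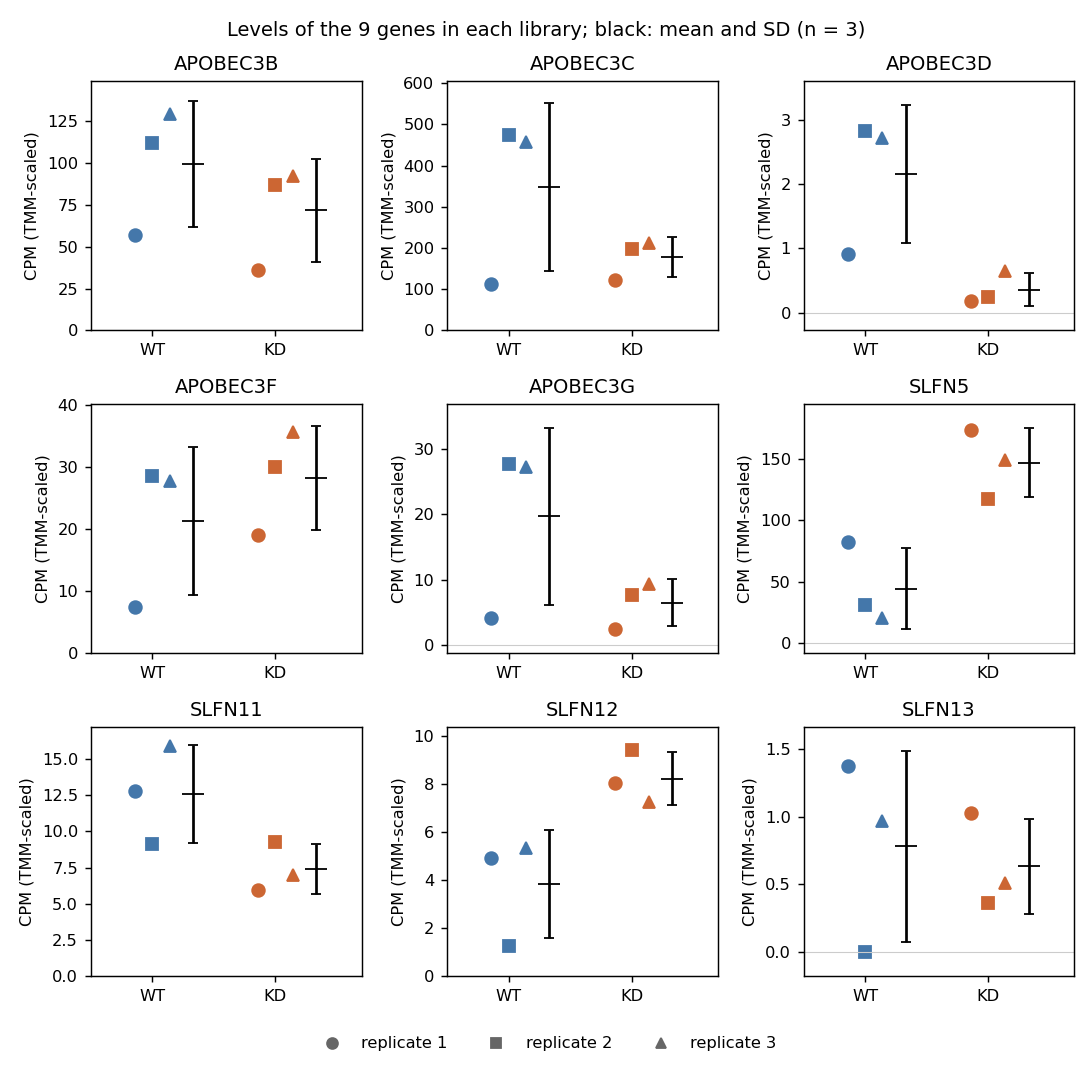
Level of each of the 9 genes in TMM-scaled CPM (vertical axis, linear) in the 3 WT and 3 KD libraries (horizontal axis, marker shape gives the replicate number), with the mean and SD (n = 3) in black. APOBEC3C and APOBEC3G are low in replicate 1 of both conditions, and SLFN5 and SLFN12 lie higher in every KD library than in every WT library.

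APOBEC3B is the nuclear member of the family, with 2 deaminase domains, and its gene spans bases 39378352 to 39388809 of chromosome 22 (GRCh37). It was at 57.2, 112 and 129 CPM in WT replicates 1 to 3 and at 36.2, 86.5 and 92.2 CPM in KD replicates 1 to 3. The conditions overlapped, and within each condition replicate 1 was the lowest. Its log2 fold change was −0.47 (standard error 0.38, 95% interval −1.33 to 0.39, edgeR adjusted p of 0.672). With each KD library set against the WT library of the same number, the log2 ratios were −0.66, −0.37 and −0.48.

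APOBEC3C, a family member with 1 deaminase domain and weak activity against retroviruses, was the most abundant of the 9 genes. It lies next to APOBEC3D, at 39410262 to 39416357. Its levels were 113, 475 and 458 CPM in WT and 122, 197 and 213 CPM in KD. Replicates 2 and 3 were lower in KD, with log2 ratios of −1.27 and −1.10, and replicate 1 was nearly level at 0.10. On the log2 scale the fold change was −0.97 (standard error 0.46, 95% interval −2.01 to 0.06, edgeR adjusted p of 0.374). Without replicate 1 of both conditions it was −1.18 (edgeR adjusted p of 0.00540), and without WT replicate 1 alone −1.40 (edgeR adjusted p of 0.0192). With any other single library left out, the edgeR adjusted p lay between 0.532 and 0.680.

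APOBEC3D, from 39417118 to 39429282, is a double-domain deaminase that is packaged into viral particles. Its 24.5, 97.4 and 74.6 expected counts in the WT libraries corresponded to 0.914, 2.82 and 2.72 CPM. In KD it had 5.73, 7.13 and 21.2 expected counts, or 0.178, 0.241 and 0.648 CPM. KD and WT did not overlap, and the two-sided exact permutation p was 0.1, the lowest that 6 libraries can give. The log2 fold change was −2.59 (standard error 1.01, 95% interval −4.86 to −0.31, edgeR adjusted p of 0.265), the largest difference among the members and one with few counts behind it in KD. Without KD replicate 3, the highest of the KD libraries, it was −3.34 (edgeR adjusted p of 0.363).

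APOBEC3F, from 39436609 to 39451977, restricts retroviruses that lack the Vif protein. It was at 7.52, 28.5 and 27.8 CPM in WT and 19.1, 30.01 and 35.6 CPM in KD. It was the APOBEC3 member with a fold change above 0, at 0.41 on the log2 scale (standard error 0.46, 95% interval −0.61 to 1.43, edgeR adjusted p of 0.784). The log2 ratio was 1.34 in replicate 1, 0.07 in replicate 2 and 0.36 in replicate 3, with the low WT replicate 1 giving the largest. Without WT replicate 1 the log2 fold change was 0.00 (edgeR adjusted p of 0.997).

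APOBEC3G, the best known of these restriction factors, edits the nascent DNA of HIV when Vif is missing and lies from 39473072 to 39483748. Its levels were 4.07, 27.7 and 27.2 CPM in WT and 2.40, 7.69 and 9.28 CPM in KD. All 3 pairs were lower in KD, with log2 ratios of −0.76, −1.85 and −1.55, though WT replicate 1 lay among the KD values. Its log2 fold change was −1.61 (standard error 0.69, 95% interval −3.15 to −0.07, edgeR adjusted p of 0.316), which is 3.05-fold lower in KD. With the replicate block APOBEC3G fell by 1.41 on the log2 scale (standard error 0.29, edgeR adjusted p of 0.0127). Without replicate 1 of both conditions the log2 fold change was −1.69 (edgeR adjusted p of 0.00851). With single libraries left out, the edgeR adjusted p ran from 0.0513 to 0.591. The markers of T and NK cells named above were at or near 0 in both conditions.

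The 7 APOBEC3 genes together reached 184, 647 and 645 CPM in WT and 180, 324 and 352 CPM in KD. This sum does not depend on how reads were divided among the paralogs. Its log2 fold change was −0.79 (standard error 0.44, 95% interval −1.77 to 0.20, edgeR adjusted p of 0.471), and −0.93 without replicate 1 of both conditions (edgeR adjusted p of 0.0141). With single libraries left out, the edgeR adjusted p of the sum ran from 0.0566 to 0.769. APOBEC3C held between 60.5% and 73.3% of the summed level in each library. APOBEC3A, a single-domain deaminase of myeloid cells, was at or under the floor of 3 counts in all 6 libraries. APOBEC3H had from 10.0 to 67.0 expected counts, a log2 fold change of 0.66 and an adjusted p of 0.853 from edgeR.

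SLFN5, a nuclear Schlafen protein described as a restriction factor for herpes simplex virus, had the largest difference upward. The gene spans bases 33570090 to 33600674 of chromosome 17 (GRCh37). Its levels were 82.3, 30.8 and 20.1 CPM in WT and 174, 118 and 150 CPM in KD. The KD range lay above the WT range, with a two-sided exact permutation p of 0.1, although WT replicate 1 was well above the other WT libraries. On the log2 scale the fold change was 1.73 (standard error 0.45, 95% interval 0.72 to 2.74, edgeR adjusted p of 0.0906), which is 3.32-fold higher in KD. With the replicate block SLFN5 rose by 1.96 on the log2 scale (standard error 0.29, edgeR adjusted p of 0.00228). Without WT replicate 1 the rise was 2.52 (edgeR adjusted p of 0.00117). With any other single library left out, the edgeR adjusted p lay between 0.192 and 0.277. The log2 ratios within replicates 1 to 3 were 1.08, 1.94 and 2.90.

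SLFN11, from 33677324 to 33700720, cleaves transfer RNA and blocks stalled forks. It was at 12.8, 9.11 and 15.9 CPM in WT and 5.94, 9.28 and 6.99 CPM in KD. Replicate 2 was level between conditions, with a log2 ratio of 0.03, and replicates 1 and 3 were lower in KD at −1.11 and −1.18. The log2 fold change was −0.77 (standard error 0.34, 95% interval −1.53 to 0.00, edgeR adjusted p of 0.336).

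SLFN12, from 33737941 to 33760302, is a transfer RNA nuclease that becomes active in complex with the phosphodiesterase PDE3A. Its levels were 4.92, 1.28 and 5.35 CPM in WT and 8.03, 9.41 and 7.25 CPM in KD. Here too the KD range lay above the WT range, with a two-sided exact permutation p of 0.1. Its log2 fold change was 1.10 (standard error 0.53, 95% interval −0.09 to 2.29, edgeR adjusted p of 0.387). Replicate 2 had the largest log2 ratio, 2.88, against 0.71 and 0.44 in replicates 1 and 3. PDE3A reached at most 0.633 CPM in any library and was not tested.

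SLFN13, from 33762115 to 33775856, cleaves transfer and ribosomal RNA. It had 36.9, 0 and 26.6 expected counts in WT and 33, 10.8 and 16.6 in KD, or at most 1.37 CPM. WT replicate 2, at 0, was below its floor of 0.0853 CPM (before TMM scaling). The conditions overlapped, and the log2 fold change of −0.29 had a 95% interval from −3.77 to 3.19 (edgeR adjusted p of 0.967), so neither a rise nor a fall was detectable at this depth. The direction was the opposite with the replicate block, at 0.64 (edgeR adjusted p of 0.903).

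The 6 Schlafen genes of the cluster summed to 101, 41.2 and 42.3 CPM in WT and 189, 137 and 165 CPM in KD. The log2 fold change of the sum was 1.41 (standard error 0.35, 95% interval 0.63 to 2.18, edgeR adjusted p of 0.0730). With the replicate block it rose by 1.53 (standard error 0.21, edgeR adjusted p of 0.00141). SLFN5 held 47.5% to 81.2% of this sum in the WT libraries and 86.1% to 92.1% in the KD libraries. SLFN14, which takes part in the decay of RNA on ribosomes in platelets and red cells, was at 0 throughout. SLFN12L had 7 expected counts in KD replicate 3 and 0 in the other libraries.

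**Figure D2:**
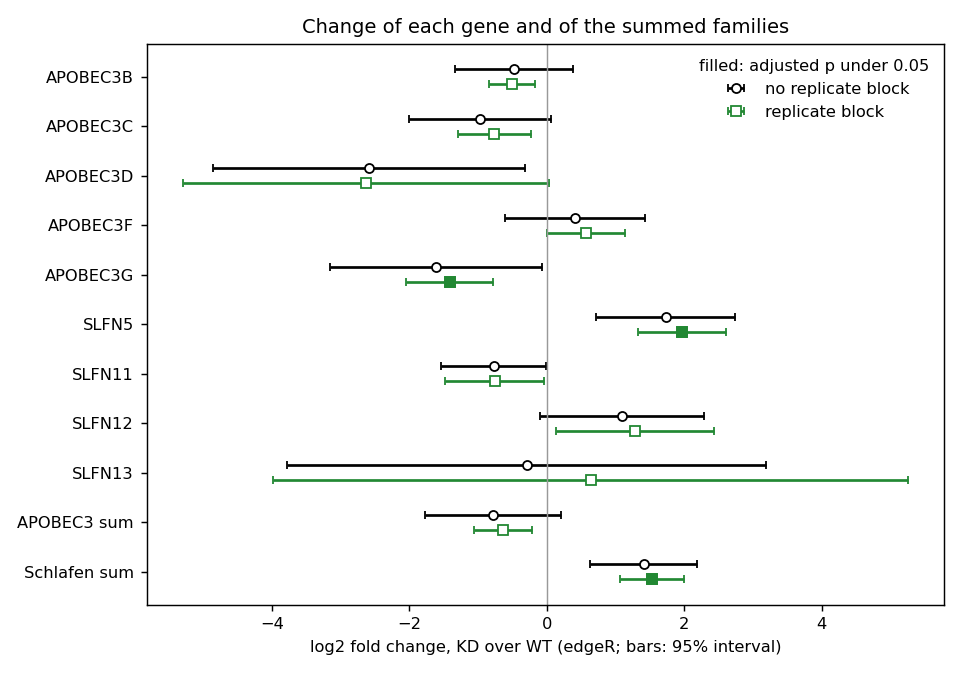
Log2 fold change of KD over WT from edgeR (horizontal axis) for the 9 genes and the 2 family sums, without (circles) and with (squares) a replicate block, with unadjusted 95% intervals. Filled symbols mark an adjusted p under 0.05, which SLFN5, APOBEC3G and the Schlafen sum reached with the block and no gene shown reached without it.

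Levels were compared between genes per kilobase of merged exons. In WT, APOBEC3C was at 132 ± 77.1 CPM per kb and APOBEC3B at 52.4 ± 19.7 CPM per kb (SD, n = 3), and their libraries overlapped. SLFN5 at 4.16 ± 3.12, APOBEC3F at 4.08 ± 2.28, APOBEC3G at 3.66 ± 2.51 and SLFN11 at 2.11 ± 0.567 CPM per kb (SD, n = 3) followed, each overlapping its neighbor in this order. SLFN12 at 1.05 ± 0.609 and APOBEC3D at 0.851 ± 0.424 CPM per kb overlapped each other. SLFN12 was separate from SLFN11 but not from APOBEC3G, which ranged from 0.757 to 5.15 CPM per kb. SLFN13 was lowest at 0.0837 ± 0.0756 CPM per kb (SD, n = 3). In KD, APOBEC3C at 67.1 ± 18.4 and APOBEC3B at 37.8 ± 16.2 CPM per kb still led the order. SLFN5 followed at 13.8 ± 2.64 CPM per kb (SD, n = 3), separate from APOBEC3B above it and from APOBEC3F below it, at 5.41 ± 1.61. SLFN12 at 2.24 ± 0.297 CPM per kb came next, above SLFN11 at 1.24 ± 0.285 and APOBEC3G at 1.20 ± 0.671, which overlapped. APOBEC3D at 0.141 ± 0.101 and SLFN13 at 0.0679 ± 0.0373 CPM per kb (SD, n = 3) also overlapped. By the longest transcript in place of merged exons, 2 members exchanged places in each condition, SLFN5 and APOBEC3G in WT and SLFN11 and APOBEC3G in KD.

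Genes around the clusters were examined next. Of 8 tested genes that flank the APOBEC3 cluster, 0 passed the test without the block at an adjusted p of 0.05 (edgeR), and 1 did at an unadjusted p under 0.05. With the block 1 passed, SYNGR1, a synaptic vesicle protein gene that fell by 1.12 on the log2 scale (edgeR adjusted p of 0.0143). PDGFB had the largest difference of the flank, −2.42 (edgeR adjusted p of 0.543), at 3.07 CPM or less. Of 8 tested genes around the Schlafen cluster, 0 passed with or without the block, and 0 had an unadjusted p under 0.05. The nearest tested genes outside the cluster on the SLFN5 side, NLE1 and RAD51D, had log2 fold changes of −0.35 and 0.00. DESeq2 and limma-voom calls were not tabulated for these lists.

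**Figure D3:**
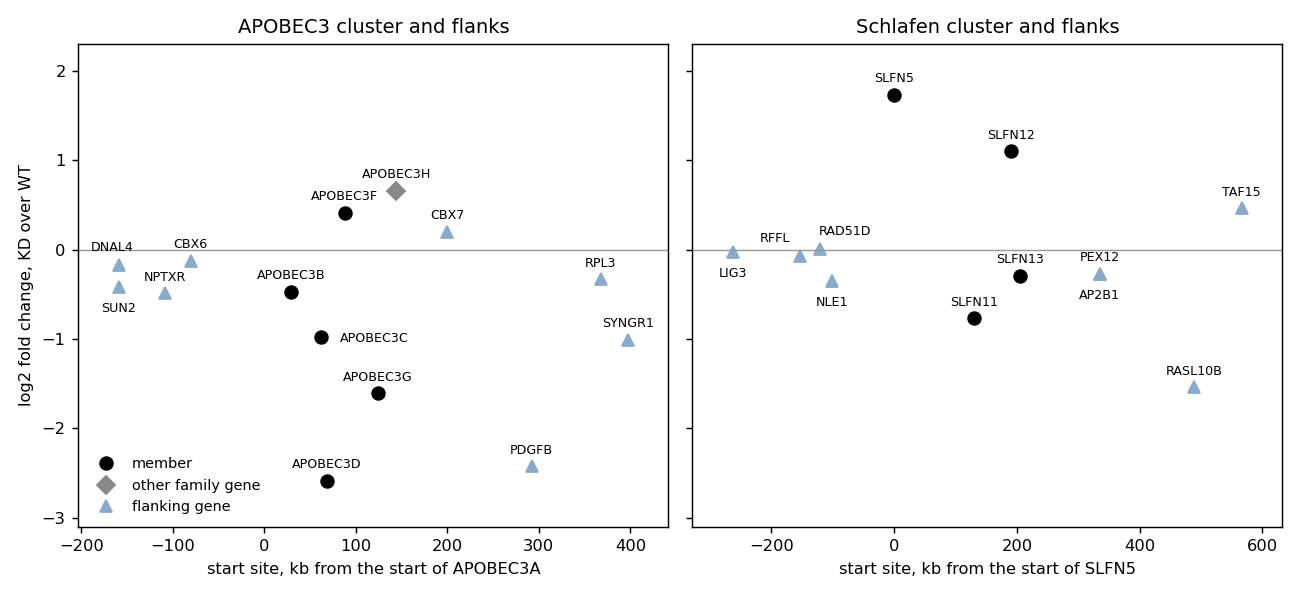
Log2 fold change of KD over WT (vertical axis) against the distance of each gene's start site from the first gene of its cluster in kb (horizontal axis), for the tested members, other family genes and flanking genes. SLFN5 at 1.73 and SLFN12 at 1.10 lie above the tested flanking genes, and SLFN11 between them lies at −0.77.

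Other genes with roles in the same defense were read from fixed lists. Restriction factors outside these families had 31 tested genes of 32 listed, of which 19 rose and 0 fell (edgeR, adjusted p under 0.05), with a median log2 fold change of 1.54. With the replicate block 23 rose, the further 4 being TREX1, SERINC5, MOV10 and IFI16. RSAD2, which makes a chain-terminating nucleotide, IFITM1, which blocks viral entry, TRIM22 and the exonuclease gene ISG20 rose most. IFITM1 rose by 5.42, TRIM22 by 5.2 and ISG20 by 3.77 on the log2 scale, and RSAD2 went from at most 0.0373 CPM in WT to between 21.2 and 47.6 CPM in KD. SAMHD1, a retroviral restriction factor that removes nucleotides, rose by 2.98 (edgeR adjusted p of 0.00110). The list of restriction factors was chosen with results of these libraries known, and the difference between it and the APOBEC3 members was not tested.

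Among transcription factors of the interferon response, IRF7 rose by 3.44, IRF9 by 2.66 and STAT2 by 1.94 on the log2 scale (edgeR adjusted p of 0.00184 or less). IRF1 and IRF3 had log2 fold changes of 0.16 and 0.09. Known regulators of APOBEC3B, from the NF-kB and the cell cycle pathways, had 0 calls among 11 tested genes and 4 at an unadjusted p under 0.05. With the block, RELB rose by 1.00, MYBL2 fell by 1.05 and FOXM1 fell by 0.74 on the log2 scale (edgeR adjusted p of 0.0279, 0.00234 and 0.00985).

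The uracils that APOBEC3 enzymes leave in DNA are removed by base excision repair. Of 11 tested genes listed for uracil repair, REV1 among them, 0 were called without the block (edgeR). An unadjusted p under 0.05 was met by 1 of them, and the median log2 fold change was −0.23. With the block 2 fell, the ligase LIG1 by 0.68 and the uracil glycosylase UNG by 0.64 on the log2 scale (edgeR adjusted p of 0.0186 and 0.0372). Of 10 tested partners of SLFN11 and SLFN12, 0 were called without the block and 3 had an unadjusted p under 0.05. With the block the helicase DHX9 fell by 0.64 (edgeR adjusted p of 0.0307). RPA1, the subunit of the single-strand binding complex that SLFN11 contacts, had a log2 fold change of −0.45 (edgeR adjusted p of 0.299).

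**Figure D4:**
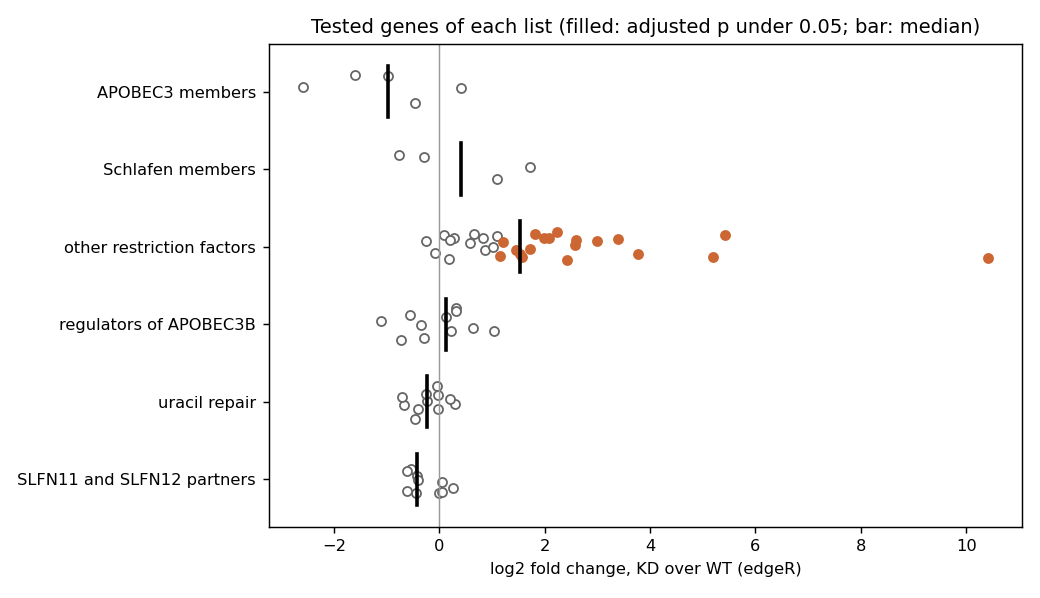
Log2 fold change of KD over WT from edgeR (horizontal axis) for the tested genes of each list (rows, vertical scatter within a row is arbitrary), with filled points for an adjusted p under 0.05 without a replicate block and a bar at the median. The medians are −0.97 for the APOBEC3 members and 0.40 for the Schlafen members, against 1.54 for the other restriction factors, of which 19 are filled.

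The genes whose pattern over the 6 libraries was most like the mean of the 5 APOBEC3 members were EHD1, LY6K, CRELD2, CHTF8 and HNRNPAB, out of 13497 genes compared. Their Pearson r lay between 0.996 and 0.999 on log2(CPM + 1). EHD1, an endosome recycling gene, was at 59.3, 188 and 186 CPM in WT and 53.7, 99.0 and 116 CPM in KD, and its adjusted p was 0.529 from edgeR. These 5 genes shared the low replicate 1 in both conditions. For the mean of the 4 Schlafen members the 5 closest were AC007347.1, HAX1, GSTCD, AC092299.7 and GLYCTK, with r between 0.987 and 0.992. The common feature of these genes was a low WT replicate 2. The members themselves differed, as that library was the lowest for SLFN12 and SLFN13. SLFN5 was lowest in WT replicate 3 and SLFN11 in KD replicate 1. Each member had equal weight in the mean, SLFN13 with its few counts included. HAX1, a mitochondrial cell survival gene, was at 200, 150 and 180 CPM in WT and between 202 and 205 CPM in KD (edgeR adjusted p of 0.710). With 6 libraries and this many genes the highest r values are a description of the ranking.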

How the data were processed

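RNA-seq of M14 cells was made by the authors from polyadenylated RNA as directional libraries read as single 50-base reads. They mapped the reads to hg19 with STAR and deposited RSEM expected counts per gene, neither scaled nor filtered, in which multi-matching reads are divided between genes. The annotation release and strand setting of the counting are not given in the sources used here. Expected counts were rounded, filtered with filterByExpr (15605 genes of 57820), scaled by TMM and tested KD against WT with edgeR 4.0.16 in R 4.3.3 (quasi-likelihood test, Benjamini-Hochberg adjustment over all tested genes, threshold 0.05). The authors describe their samples as biologically independent, without saying how the cultures were separated. The standard error is the log2 fold change over the root of F, and 95% intervals are unadjusted. CPM values are TMM-scaled, except those of the floor. Members and lists were chosen with earlier results of these data known. The genes named are the members, STAG2, the list genes with the largest changes, and the 5 genes most like each family. PMEL, SAMHD1, MYBL2 and further list genes given as background were picked after their values were seen.

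Pairing of the libraries is not described by the authors, and the test had no block. Deviations of log2 CPM from the condition means, over 10569 genes, correlated between same-numbered libraries with r of 0.524, 0.365 and 0.301 for replicates 1 to 3, each above 0.1, which is how the pairing was judged. Of the pairs with unlike numbers, those of replicates 2 and 3 had r of 0.235 and 0.173 and the others were below 0. Those of replicates 2 and 3 also lay above 0.1, so this limit does not single out same-numbered libraries. Alternatives were DESeq2 1.42.0 (p-values adjusted over the same genes), limma-voom (limma 3.58.1), other normalization and filters, unrounded counts, the replicate block and left-out libraries. Positions, exon lengths and shared 50-base words are from GENCODE lifted to GRCh37, the build of hg19, and promoters from RefSeq on GRCh38.p14. Some genes of the lists are not reported here.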

Additional observations from a re-analysis of the deposited data

How the results depend on the processing

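The number of members called was 0 higher and 0 lower in KD. It became 1 higher with the replicate block, DESeq2, limma-voom or no filter on low counts, and lower in KD it became 1 with the replicate block and 2 without the filter. With single libraries left out it ran from 0 to 1 higher and 0 to 1 lower, and without replicate 1 of both conditions it was 1 higher and 2 lower. Over all tested genes, 573 were called higher and 530 lower without the filter. With single libraries left out these totals were 106 to 340 and 15 to 191, and without replicate 1 of both conditions 461 and 296. The share of tested genes was not tabulated for these settings, in which the number tested can differ. The replicate block made SLFN5 (1.96, edgeR adjusted p of 0.00228), APOBEC3G (−1.41, adjusted p = 0.0127) and the Schlafen sum (1.53, adjusted p = 0.00141) pass, reversed SLFN13 (0.64) and changed no other call of a member or sum. DESeq2 and limma-voom gave SLFN5 1.73 and 1.98 and the Schlafen sum 1.41 and 1.54, all past the threshold, and limma-voom gave SLFN13 1.41. Without a filter APOBEC3C (−0.98), APOBEC3G (−1.61), SLFN5 (1.71) and the sums of APOBEC3 (−0.79) and Schlafen (1.39) passed, and with at least 10 counts in every library the Schlafen sum did (1.41), while APOBEC3D and SLFN13 were not tested. Leaving out single libraries gave log2 fold changes of −1.40 to −0.69 for APOBEC3C, −2.09 to −1.21 for APOBEC3G, −0.75 to −0.15 for APOBEC3B, −3.34 to −2.28 for APOBEC3D, 1.37 to 2.52 for SLFN5, −0.88 to 0.37 for SLFN13, −1.18 to −0.53 for the APOBEC3 sum and 1.18 to 1.96 for the Schlafen sum. Without replicate 1 of both conditions these were −1.18 for APOBEC3C, −1.69 for APOBEC3G, 2.40 for SLFN5, −0.93 for the APOBEC3 sum and 1.86 for the Schlafen sum, all past the threshold. For the Schlafen sum the edgeR adjusted p ran from 0.00114 to 0.262 with single libraries left out. STAG2 kept its direction, between −2.63 and −1.68, and its adjusted p reached 0.168 with a library left out.

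The family sums have the opposite sign to APOBEC3F (sum −0.79), and to SLFN11 and SLFN13 (sum 1.41). The 404 genes called (273 higher, 131 lower) became 1486 (796 and 690) with the replicate block, 982 (544 and 438) with DESeq2, 412 (275 and 137) with limma-voom, 1103 (573 and 530) without a filter, 137 (116 and 21) at an adjusted p under 0.01 and 757 (461 and 296) without replicate 1 of both conditions. With single libraries left out there were 121 to 531 (106 to 340 higher, 15 to 191 lower). By the longest transcript, 2 members changed rank in each condition. The cause of these changes was not tested. SLFN13 and APOBEC3D had few reads, from 5.73 to 33 expected counts in the KD libraries.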

Other observations

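The B cell markers MS4A1 and CD79A were at 0 in all libraries and at most 0.667 CPM, respectively. APOBEC2 had 2 expected counts in WT replicate 1, and APOBEC1 and APOBEC4 had 0 throughout. SLFNL1, a Schlafen-like gene, had from 8 to 69.0 expected counts per library (log2 fold change −0.22, edgeR adjusted p of 0.968). CD68, a lysosomal protein gene used as a myeloid marker, was higher in KD by 1.59 (log2, edgeR adjusted p of 0.00855). The myeloid marker LYZ was also higher in every KD library, at 0.473 to 0.875 CPM in WT and 1.97 to 2.17 CPM in KD. Its log2 fold change was 1.51 (edgeR adjusted p of 0.447). CSF1R (log2 fold change 0.23, at most 1.64 CPM) and CD14 (−0.62, at most 0.986 CPM) overlapped between conditions, and ITGAM was not tested. PTPRC had 0 counts in 5 of 6 libraries. COL1A1, a collagen gene, was at 2.66, 85.1 and 58.1 CPM in WT and 1.40, 19.4 and 17.7 CPM in KD, with the same low replicate 1 as APOBEC3C and APOBEC3G. Its log2 fold change was −1.92 (edgeR adjusted p of 0.462), and with the replicate block −1.67 (edgeR adjusted p of 0.00232). Over whole marker lists, the 3 fibroblast genes summed to 3.89 to 90.4 CPM in WT and 2.40 to 21.4 CPM in KD. The 5 myeloid genes summed to 27.1 to 42.1 CPM in WT and 91.9 to 128 CPM in KD, nearly all of it CD68. The keratinocyte genes summed to at most 4.23 CPM. Of 3 endothelial genes listed, 2 were found by symbol, VWF and CDH5 but not PECAM1, and they summed to at most 5.45 CPM. Single genes here were chosen after their values were seen.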
